A study of Homo sapiens with 6 samples.

Results

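HSP70 and HSP110 are families of ATP-driven chaperones, and 9 of their genes outside the main endoplasmic reticulum (ER) forms were taken from a table of 16376 genes by symbol: HSPA8, HSPA1A, HSPA1B, HSPH1, HSPA4, HSPA4L, HSPA9, HSPA13 and HSPA14. All 9 were matched, and all 9 entered the tests. The table holds RNA sequencing of HOS cells, a cell line from a human osteosarcoma, which is a bone tumour. One group was 3 libraries of wild-type cells after 24 h with Agrimol B, a plant phloroglucinol, and the other was 3 libraries of wild-type control cells, whose treatment is listed as none. The labels give neither the dose nor a solvent for the controls, and they list no time for the controls. They also do not say that replicates were separate cultures. The p-values therefore set each difference only against the spread among these libraries, and that spread may be technical.

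An HSP70 binds short hydrophobic stretches of unfolded protein, and ATP hydrolysis locks them in place. J-domain proteins trigger the hydrolysis, and nucleotide exchange factors, including the HSP110 proteins, release ADP and so the client. HSPA8 (HSC70) is the constitutive cytosolic form, HSPA1A and HSPA1B are the stress-inducible forms driven by heat shock factor 1, HSPA9 (mortalin) works in the mitochondrial matrix, and HSPA14 pairs with DNAJC2 on ribosomes. HSPA13 (STCH) is known from microsomes, a fraction largely made of ER membrane, so its place outside the ER rests on the gene list and not on background knowledge.

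Values are in FPKM, fragments scaled to transcript length and library size, so levels of different genes can be set side by side. Group means are given ± SD over 3 libraries. Tests used limma on log2(FPKM + 1), with Benjamini-Hochberg adjustment over the 12143 genes that averaged 1 FPKM or more. A gene is said to rise or fall where its adjusted p was under 0.05, and a fold is the ratio of group means of FPKM. Libraries of 1 group correlated at r = 0.986 to 0.988 across tested genes, and libraries of different groups at 0.947 to 0.950. Relative depths, read from genes under 0.05 FPKM, were 0.990 to 1.04 in the controls and 1.00 to 1.19 with Agrimol B, with control library 1 as 1. They are tentative, since only 4.98% to 10.8% of such genes in a pair of libraries stood at the common ratio. Read totals are unknown, so no counting error is given. Of 10 osteoblast and mesenchymal markers 8 were matched, and SP7 and IBSP were not. RUNX2, ALPL, SPP1, SPARC, COL1A1, COL1A2 and VIM were all above 3 FPKM in every library, while BGLAP stayed at 0.0418 to 0.221 FPKM. Of the 7 tested, 5 fell (COL1A2 by 2.73-fold), SPP1 rose 2.18-fold and RUNX2 was not called. Among all tested genes, 21.4% fell and 30.6% rose. Among epithelial markers, EPCAM stood at 12.8 to 14.7 FPKM in all 6 libraries. KRT19 was at 0 to 0.209 FPKM in controls and at 0, 3.17 and 2.68 FPKM in Agrimol B libraries 1 to 3, and KRT5 reached 10.4 FPKM in Agrimol B library 3 against at most 0.735 FPKM in controls. The summed FPKM of 5 epithelial markers was 14.0 to 15.3 in controls and 13.3 to 28.3 with Agrimol B. That of 3 matched leukocyte markers was 1.33 to 1.96 and 0.501 to 0.904, with PTPRC at 0 in 5 libraries. CD14 stood at 1.19 to 1.81 FPKM in controls and 0.393 to 0.774 FPKM with Agrimol B. The summed FPKM of 5 endothelial markers was 3.55 to 3.94 and 0.933 to 1.31, with PECAM1 at 0 to 0.0391. TEK stood at 2.99 to 3.29 FPKM in controls and 0.597 to 0.966 FPKM with Agrimol B. The part of any of these markers in the results was not tested.

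With Agrimol B the cytosolic HSP70 genes HSPA8, HSPA1A and HSPA1B and the HSP110 genes HSPH1, HSPA4 and HSPA4L were lower, and the mitochondrial HSPA9 and the microsomal HSPA13 were higher. Of the 9 genes, 6 fell, 2 rose and 1, HSPA14, did not pass the test. Among all tested genes 21.4% fell and 30.6% rose, or 52% in all. The Agrimol B values lay below all control values for 6 of the 9 genes and above them for 2, against 26% and 36.2% of all tested genes (62.2% in either direction). The median log2 difference of the 9 genes was -0.39, beside 0.07 over all tested genes. In these bulk libraries, fewer cells making a transcript and less of it per cell cannot be told apart.

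**Figure D1:**
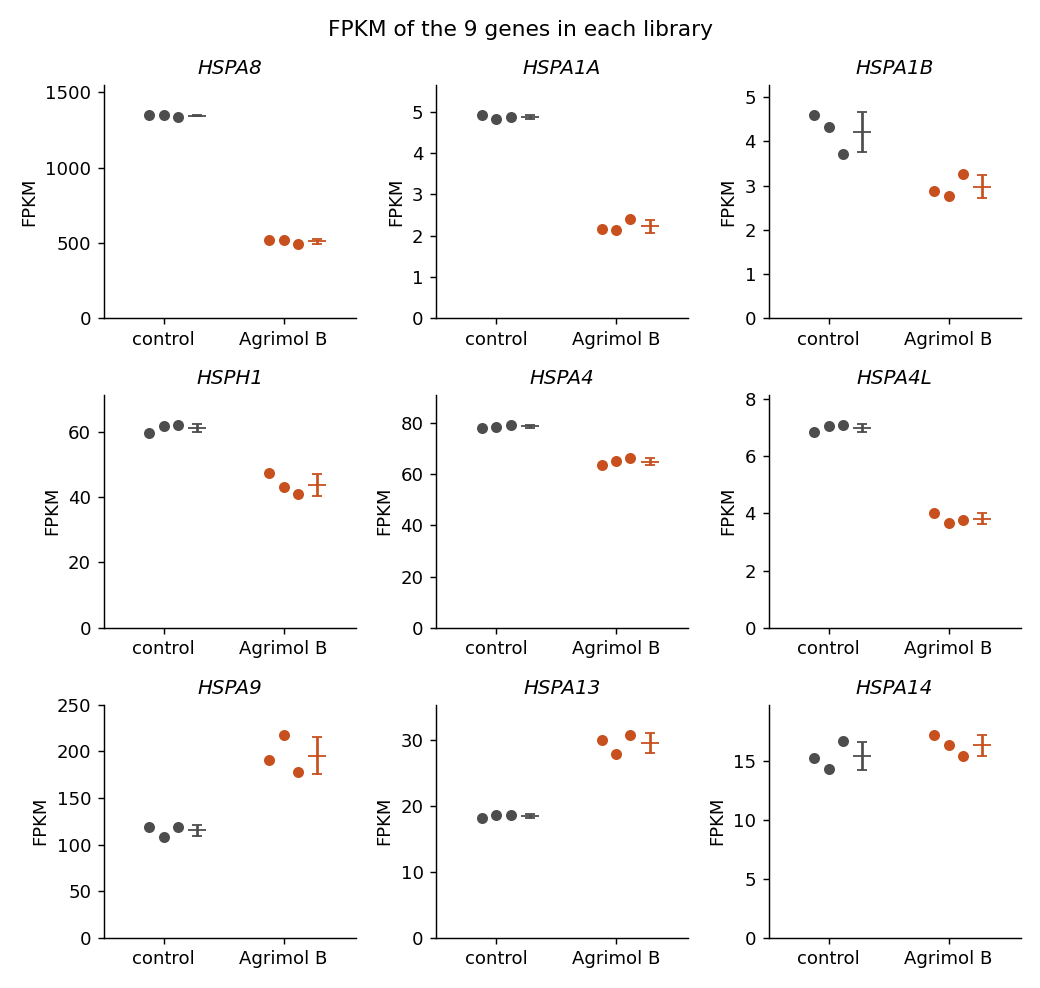
FPKM (vertical axes, each from 0) of the 9 genes in 3 control libraries (grey) and 3 Agrimol B libraries (orange). Points are libraries, and the bar beside them is the mean ± SD. The groups are apart for every gene except HSPA14, lower with Agrimol B for 6 genes and higher for HSPA9 and HSPA13.

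The cytosolic HSP70 genes are described first. HSPA8 folds newly made proteins, strips clathrin from vesicles and delivers proteins to lysosomes. Its gene lies on chromosome 11 (GRCh38, 123057489 to 123063230, minus strand) and hosts small nucleolar RNA genes. HSPA8 was the 16th most abundant transcript of the table in controls, at 1347, 1347 and 1339 FPKM in control libraries 1 to 3, and the 74th with Agrimol B, at 520, 518 and 492 FPKM. The controls were nearly equal, and every Agrimol B library was far below them. Its mean fell 2.64-fold, from 1345 ± 4.8 to 510.0 ± 15.6 FPKM (log2 difference -1.40 ± 0.0320 SE, limma adjusted p = 6.74e-06). Its mean fell by 835 FPKM, which was the 2nd largest such fall in the table. By log2 difference it was the 77th lowest of the 12143 tested genes.

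HSPA1A stood at 4.91, 4.81 and 4.88 FPKM in controls and 2.15, 2.12 and 2.39 FPKM with Agrimol B. The groups were well apart, and HSPA1A fell 2.19-fold (log2 difference -0.87 ± 0.0581 SE, limma adjusted p = 0.000120). HSPA1B stood at 4.59, 4.32 and 3.71 FPKM in controls and 2.87, 2.77 and 3.27 FPKM with Agrimol B. Control library 3 was the lowest control and Agrimol B library 3 the highest treated one, which left a narrow gap. HSPA1B fell 1.42-fold (log2 difference -0.39 ± 0.0885 SE, limma adjusted p = 0.0118).

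Together these inducible genes made up little of the cytosolic HSP70 transcript pool: their summed level was 9.08 ± 0.459 FPKM in controls and 5.19 ± 0.414 FPKM with Agrimol B. The genes are neighbours on chromosome 6 (GRCh38, HSPA1A at 31815464 to 31817946 and HSPA1B at 31827735 to 31830255, both on the plus strand). Of all 75-base windows of their transcripts in GENCODE release 29, 71.2% for HSPA1A and 73.2% for HSPA1B occur exactly in a transcript of another gene, mainly of each other. The sources used here do not say how such reads were divided, so the separate values are uncertain. The ratio of HSPA1A to HSPA1B was 1.07, 1.11 and 1.32 in controls and 0.748, 0.766 and 0.732 with Agrimol B, a difference that was not tested. Added into 1 row before the fit, the pair fell (log2 difference -0.70 ± 0.0697 SE, limma adjusted p = 0.000461).

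Promoter windows are printed for HSPA8 and HSPA1A, which fell, and for HSPA9 and HSPA13, which rose. Each runs from 250 bases before to 50 bases after a gene start, 5′ to 3′ on the strand of the gene, from RefSeq on GRCh38.p14. For HSPA8, HSPA9 and HSPA13 the GENCODE gene begins farther upstream, so the window lies inside its span. Motif positions hold for the RefSeq start only. Capitals mark heat shock elements, the binding sequence of heat shock factors, searched on both strands as 2 units (GAANNTTC and TTCNNGAA) or as 3 units (the same letters followed by NNGAA and NNTTC). Every match of 3 units also holds matches of 2 units.
HSPA8, chr11:123062087-123062386, minus strand: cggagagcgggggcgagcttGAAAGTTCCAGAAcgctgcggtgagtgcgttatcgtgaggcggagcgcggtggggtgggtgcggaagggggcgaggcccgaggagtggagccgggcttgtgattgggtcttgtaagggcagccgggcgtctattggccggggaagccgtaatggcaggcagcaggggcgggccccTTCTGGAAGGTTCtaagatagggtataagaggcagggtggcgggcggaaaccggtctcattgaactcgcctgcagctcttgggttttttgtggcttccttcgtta
HSPA1A, chr6:31815293-31815592, plus strand: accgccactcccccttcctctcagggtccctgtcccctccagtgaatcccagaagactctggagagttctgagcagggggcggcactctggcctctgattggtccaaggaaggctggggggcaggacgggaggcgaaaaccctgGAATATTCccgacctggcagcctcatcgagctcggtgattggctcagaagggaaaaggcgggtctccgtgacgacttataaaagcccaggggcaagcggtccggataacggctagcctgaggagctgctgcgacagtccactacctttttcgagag
HSPA9, chr5:138575352-138575651, minus strand: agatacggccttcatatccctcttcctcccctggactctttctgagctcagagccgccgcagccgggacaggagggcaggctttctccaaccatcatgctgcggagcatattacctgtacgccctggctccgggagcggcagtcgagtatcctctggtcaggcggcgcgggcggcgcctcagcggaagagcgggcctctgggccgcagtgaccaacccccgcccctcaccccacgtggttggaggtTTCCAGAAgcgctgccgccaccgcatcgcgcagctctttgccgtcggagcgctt
HSPA13, chr21:14383097-14383396, minus strand: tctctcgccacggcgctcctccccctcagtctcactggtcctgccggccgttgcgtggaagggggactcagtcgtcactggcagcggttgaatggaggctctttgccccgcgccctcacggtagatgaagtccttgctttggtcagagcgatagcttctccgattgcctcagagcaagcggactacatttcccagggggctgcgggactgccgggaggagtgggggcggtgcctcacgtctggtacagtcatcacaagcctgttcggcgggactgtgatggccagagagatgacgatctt

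HSPA8 was the only member with exact matches to elements of 3 units, at positions -230 and -55 from its start. Such elements occurred in 0.49% of 35116 RefSeq promoter windows of this length and in 1 of the 10 windows of these genes. HSPA1A and HSPA1B each held 1 element of 2 units, at -106 and -105, HSPA9 held 1 that crosses its start, and 1 of 3 windows of HSPA4L held 1. In all, 5 of the 10 windows held an element of 2 units, against 13.5% of all windows. The CCAAT box, searched as CCAAT on both strands, was found in 4 of the 10 windows (HSPA8, HSPA1A, HSPA1B and 1 of HSPA4L) and in 34.6% of all. The ER stress element, which contains a CCAAT box, was in 0 of the 10 windows and 0.0769% of all, and the C/EBP-ATF element (TGATGNAAT) in 0 of 10 and 0.991% of all. A match is a description of the letters in the window, and binding was not measured. Only exact letters were searched, so elements with any differing letter, in these or other windows, would be missed. Of the 9 genes 8 had a window, and HSPA14 had none.

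**Figure D2:**
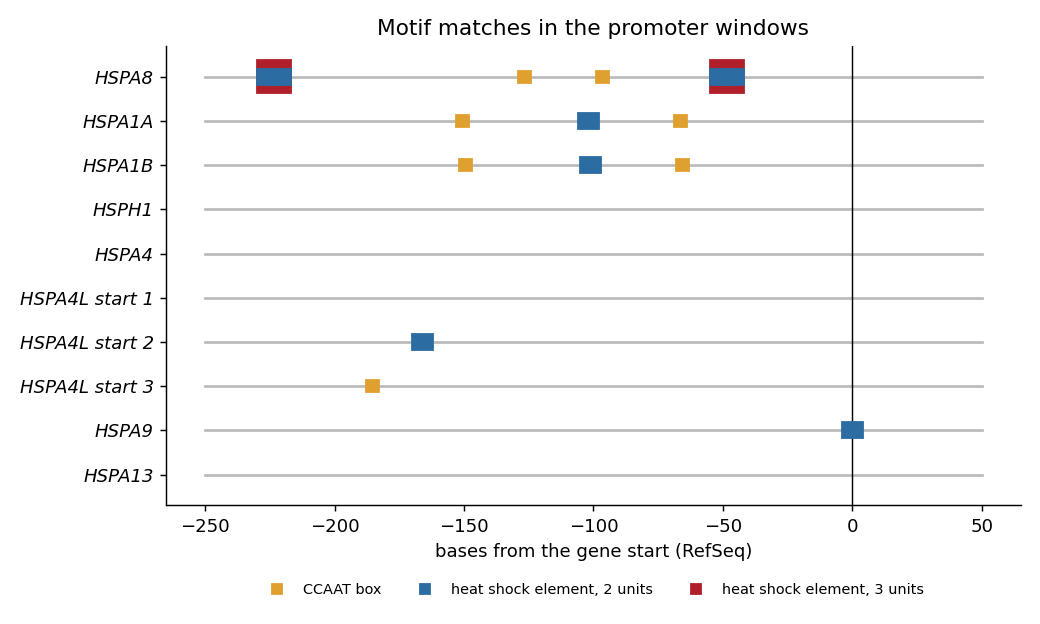
Motif matches in the 10 promoter windows of 8 genes, by distance in bases from the RefSeq gene start. Red bars are heat shock elements of 3 units (the taller bars, with the blue 2-unit matches they contain drawn on top), and yellow bars are CCAAT boxes. Red bars appear for HSPA8 alone.

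HSP110 proteins act as exchange factors for HSP70 and keep unfolded protein soluble. The log2 differences of their 3 transcripts were smaller in size than that of HSPA8. HSPH1 stood at 59.7, 61.6 and 62.0 FPKM in controls and 47.4, 43.0 and 40.9 FPKM with Agrimol B. It fell 1.40-fold (log2 difference -0.47 ± 0.0612 SE, limma adjusted p = 0.00130), with no treated library near the controls.

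HSPA4, the most abundant HSP110 gene, stood at 78.1, 78.5 and 79.1 FPKM in controls and 63.5, 64.9 and 66.1 FPKM with Agrimol B. Replicates were tight, and this smallest called difference of the 9 genes, 1.21-fold lower, passed the test (log2 difference -0.27 ± 0.0343 SE, limma adjusted p = 0.00116). HSPA4L stood at 6.84, 7.05 and 7.09 FPKM in controls and 4.03, 3.65 and 3.79 FPKM with Agrimol B. It fell 1.83-fold (log2 difference -0.73 ± 0.0542 SE, limma adjusted p = 0.000167). HSPH1 lies on chromosome 13 (31134974 to 31162388, minus strand), HSPA4 on chromosome 5 (133051962 to 133106449, plus strand) and HSPA4L on chromosome 4 (127781821 to 127840733, plus strand). HSPA4 and HSPA4L each overlap another annotated gene on their strand, and HSPA4L also overlaps genes on the other strand. The summed level of the HSP110 genes went from 146.6 ± 1.81 to 112.4 ± 2.22 FPKM, and HSPA8 stood at 9.17 ± 0.139 times that sum in controls and 4.54 ± 0.102 times with Agrimol B.

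HSPA9, on chromosome 5 (138553756 to 138575724, minus strand), pulls imported proteins into the mitochondrial matrix, folds them there and helps to deliver iron-sulfur clusters. It stood at 119, 108 and 119 FPKM in controls and 191, 218 and 178 FPKM with Agrimol B. The treated libraries varied more than the controls, with library 2 the highest, and all 3 were above every control. HSPA9 rose 1.70-fold, from 115 ± 6.15 to 195 ± 20.1 FPKM (log2 difference 0.75 ± 0.0822 SE, limma adjusted p = 0.000674).

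HSPA13, on chromosome 21 (14371115 to 14383484, minus strand), has an HSP70 ATPase domain and lacks the usual client-binding part. It stood at 18.2, 18.7 and 18.6 FPKM in controls and 29.97, 28.0 and 30.8 FPKM with Agrimol B. It rose 1.601-fold (log2 difference 0.65 ± 0.0497 SE, limma adjusted p = 0.000183), and the lowest treated library was well above the highest control.

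HSPA14 is the member for which the groups overlapped. It stood at 15.2, 14.4 and 16.7 FPKM in controls and 17.2, 16.4 and 15.4 FPKM with Agrimol B (log2 difference 0.08 ± 0.0704 SE, limma adjusted p = 0.376). The 95% interval of the log2 difference ran from -0.09 to 0.25, so modest changes in either direction are within it. GENCODE holds 2 overlapping genes of this symbol on chromosome 10, at 14838160 to 14847018 and 14838164 to 14871741 on the plus strand. HSPA14 is also 1 of 13 genes in the table with values of more than 6 significant digits, and 9 of these 13 symbols belong to more than 1 GENCODE gene. Whether its row combines entries was not tested.

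**Figure D3:**
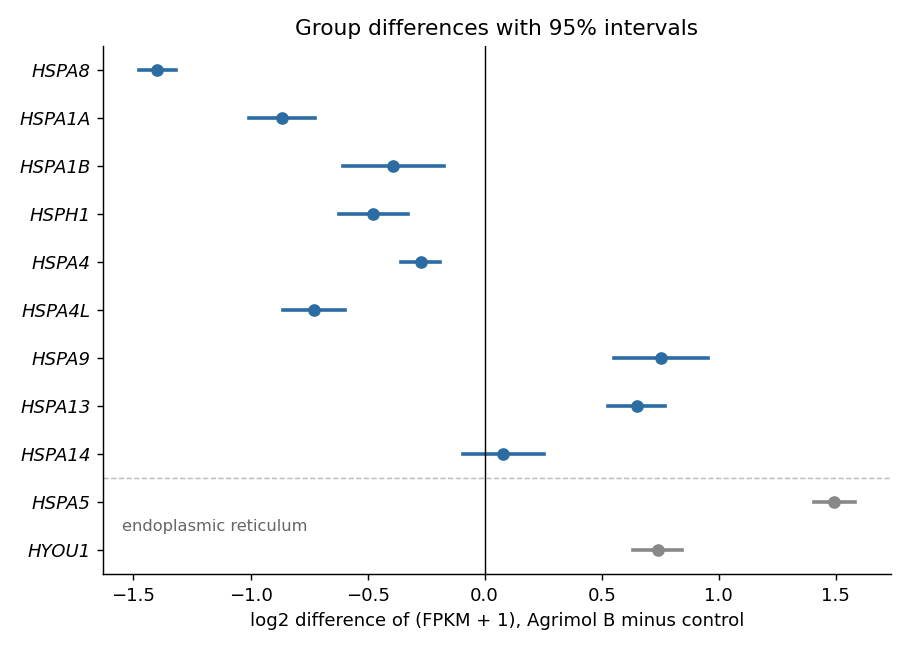
Log2 difference of FPKM + 1, Agrimol B minus control (points), with 95% intervals from limma (lines), for the 9 genes and, below the dashed line, for the ER chaperones HSPA5 and HYOU1. HSPA8 is farthest to the left at -1.40, the interval of HSPA14 spans 0, and HSPA9 and HSPA13 lie on the same side as the ER genes.

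HSPA8 had the lowest log2 difference of the 9 genes, so the direction of the other genes' ratios to it follows from that and is no further evidence. The log2 ratio of FPKM + 1 to that of HSPA8 was higher with Agrimol B for the other 8 genes, by 0.53 for HSPA1A, 0.67 for HSPA4L, 0.92 for HSPH1, 1.01 for HSPA1B, 1.12 for HSPA4, 1.48 for HSPA14, 2.05 for HSPA13 and 2.15 for HSPA9. In each case the 3 treated ratios lay above the 3 control ratios, and the exact permutation test, two-sided, gave p = 0.1 (adjusted p = 0.1 over 8 ratios), the smallest value that 3 against 3 libraries allow and short of the threshold. With a pseudocount of 0.1 the difference for HSPA1A was 0.30. All 8 ratios share the HSPA8 values of the same libraries.

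The make-up of the chaperone transcripts shifted. HSPA8 held 81.5 ± 0.371% of the summed FPKM of the 9 genes in controls and 58.7 ± 0.782% with Agrimol B, while HSPA9 went from 6.99 ± 0.356% to 22.5 ± 1.57%. The sum over the 9 genes was 1654, 1645 and 1650 FPKM in controls and 878, 897 and 833 FPKM with Agrimol B. Without HSPA8, the other 8 genes summed to 305 ± 6.66 FPKM in controls and 359 ± 18.8 FPKM with Agrimol B. Without HSPA9 as well, the other 7 genes summed to 188, 189 and 192 FPKM in controls and 167, 161 and 163 FPKM with Agrimol B, so the higher sum of the 8 genes was seen with HSPA9 and not without it. These sums are descriptions, with no test.

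**Figure D4:**
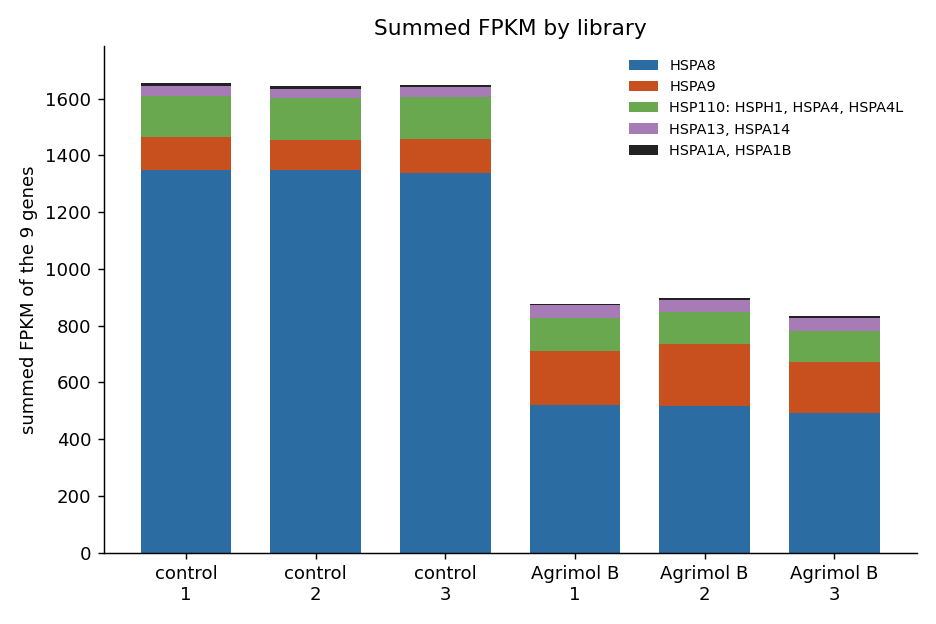
Summed FPKM of the 9 genes in each library (bars from 0), split by gene or group. The control bars reach 1645 to 1654 FPKM and the Agrimol B bars 833 to 897 FPKM, with a shorter HSPA8 segment and a taller HSPA9 segment.

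In both groups the order of levels began with HSPA8, HSPA9, HSPA4, HSPH1, HSPA13, HSPA14 and HSPA4L. HSPA1A stood above HSPA1B in controls and below it with Agrimol B, but the separate values of this pair are uncertain, as said above. No neighbours in either order had overlapping ranges over 3 libraries. The levels drew closer at the top: HSPA8 stood at 11.7 ± 0.664 times HSPA9 in controls and 2.62 ± 0.209 times with Agrimol B.

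The ER forms of these families were left out of the 9 genes and are set beside them here. HSPA5 (BiP), the HSP70 of the ER, stood at 155, 158 and 153 FPKM in controls and 426, 439 and 453 FPKM with Agrimol B, and HYOU1, its HSP110-like exchange factor, rose 1.68-fold (log2 difference 0.74, limma adjusted p = 7.26e-05). The ratio of HSPA8 to HSPA5 was 8.65 ± 0.128 in controls and 1.16 ± 0.0688 with Agrimol B. Of the 7 HSP70 family genes outside the 9, 4 were tested: HSPA5 and HYOU1 rose, and HSPA2 and HSPA12A (the latter named after its values were seen) fell 1.76-fold and 1.40-fold. HSPA6, the strictly stress-inducible form, averaged 0.0311 FPKM in controls and 0.110 FPKM with Agrimol B. Its groups overlapped, all 6 libraries lay between 0.0125 and 0.186 FPKM, and it was not tested. HSPA1L (mean 0.413 FPKM in controls and 0.203 FPKM with Agrimol B) and HSPA12B (0.192 and 0.162 FPKM) were not tested either.

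Of 12 cytosolic J-domain co-chaperones, which partner the cytosolic forms, 3 fell, 3 rose and 6 were not called (median log2 difference 0.09), close to the 21.4% of all tested genes that fell and the 30.6% that rose. Those shares apply beside each partner list, and most lists are too short to read against them. DNAJA1, a main partner of HSPA8, fell 1.599-fold from 95.01 ± 1.33 to 59.4 ± 4.40 FPKM (limma adjusted p = 0.000303), and the others that fell were DNAJB1 (1.40-fold) and DNAJC5 (1.11-fold). DNAJB2, which steers clients to the proteasome, rose 2.59-fold from 12.2 ± 2.53 to 31.6 ± 2.16 FPKM (limma adjusted p = 0.000791). DNAJC9, a histone co-chaperone, rose 1.47-fold, and DNAJC7 1.13-fold. DNAJC9 lost its call without any 1 control library and with both other scalings (adjusted p 0.00611 to 0.0825 over all alternatives), and its log2 difference of 0.50 was 0.32 without Agrimol B replicate 2. DNAJC2, the ribosomal partner of HSPA14, stood at 34.2, 31.7 and 33.5 FPKM in controls and 35.3, 35.7 and 33.9 FPKM with Agrimol B, and did not pass the test. DNAJB1, DNAJC2, DNAJC5 and DNAJC7 were named after their values were seen.

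Of 6 exchange factors outside the HSP110 group, BAG1 fell (1.27-fold, limma adjusted p = 0.0155) and the other 5 were not called, BAG3 included. BAG1 lost its call without control replicate 1 (adjusted p 0.00683 to 0.0505 over all alternatives). Of 3 cofactors, ST13 (HIP), which slows the release of clients, fell 1.13-fold, and STIP1 (HOP) and STUB1 (CHIP) were not called. Of 6 genes of clathrin uncoating and chaperone-mediated autophagy, in which HSPA8 acts, GAK and the clathrin light chain CLTB rose 1.31-fold and 1.21-fold, and 0 fell.

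Of 10 mitochondrial partners of HSPA9, 3 rose, 3 fell and 4 were not called (median log2 difference 0.14), beside 30.6% and 21.4% of all tested genes. The chaperonin pair HSPD1 and HSPE1, which receives proteins from HSPA9, fell 1.45-fold and 2.05-fold. With HSPA9 higher and HSPD1 lower, HSPA9 stood at 0.329 ± 0.0181 times HSPD1 in controls and 0.813 ± 0.0792 times with Agrimol B. DNAJA3, the matrix J-domain protein, rose 1.43-fold from 22.3 ± 1.73 to 31.9 ± 2.69 FPKM (limma adjusted p = 0.00349). PAM16 of the import motor rose 1.40-fold and the exchange factor GRPEL2 1.29-fold, while DNAJC15 fell 1.35-fold. PAM16, GRPEL2 and DNAJC15 were named after their values were seen. Of 6 iron-sulfur genes, the scaffold ISCU rose 1.48-fold (limma adjusted p = 0.000171), and LYRM4 and GLRX5 fell 1.58-fold and 1.078-fold. LYRM4 lost its call without Agrimol B replicate 1 or any 1 control library (adjusted p 0.00551 to 0.0721 over all alternatives), and GLRX5 without any 1 of the 6 libraries or with no variance trend (0.00651 to 0.0945).

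Of 4 heat shock factor genes 1 fell and 3 were not called. HSF1, the main activator of heat shock genes, stood at 28.6, 24.2 and 19.9 FPKM in controls and 33.1, 28.9 and 29.2 FPKM with Agrimol B (log2 difference 0.33, limma adjusted p = 0.0810). Control library 1 was just below the lowest treated library, and the groups did not overlap. Without that library HSF1 passed the test (adjusted p = 0.0224; 0.0224 to 0.203 over all alternatives). Without control library 3 its log2 difference was 0.20 (adjusted p = 0.160). HSF2 stood at 8.41, 8.50 and 7.85 FPKM and at 7.59, 7.72 and 7.66 FPKM (log2 difference -0.10, limma adjusted p = 0.160), with every treated library below the controls. HSF2 passed the test with both other scalings (adjusted p = 0.0410 and 0.0271; 0.0271 to 0.343 over all alternatives). HSF4 fell 1.23-fold (adjusted p = 0.0484), a call lost without any 1 of the 6 libraries or with no filter (0.0260 to 0.112 over all alternatives). Of 18 tested heat shock factor targets outside the HSP70 family, 7 fell, 2 rose and 9 were not called (median log2 difference -0.10), beside 21.4% and 30.6% of all tested genes. HSPD1, HSPE1, DNAJA1 and DNAJB1, which fell, and BAG3 and STIP1, which were not called, were already counted in the lists above. HSP90AB1, the constitutive cytosolic HSP90, fell 1.504-fold from 883 ± 3.55 to 587 ± 6.92 FPKM (limma adjusted p = 3.52e-05).

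Genes with the most similar course over the 6 libraries were found by Euclidean distance between log2(FPKM + 1) values centred on the control mean. For HSPA8 these were DLGAP5, a mitotic spindle protein (distance 0.0849), GJA1, the gap junction protein connexin 43 (0.103), and E2F8, a repressor of cell cycle genes (0.132). For HSPH1 they were PRKAR2B, a regulatory subunit of protein kinase A (0.0426), the dUTP hydrolase DUT (0.0680) and the peroxiredoxin PRDX2 (0.0827). For HSPA9 they were NPDC1 (0.0711), the telomere maintenance protein CTC1 (0.0894) and the chemokine CXCL1 (0.0900), which like HSPA9 were highest in Agrimol B library 2. For HSPA13 they were ZNF783 (0.0766), the secreted protein CTHRC1 (0.0775) and SP140L (0.0828). These distances describe 6 libraries in 2 groups and were not tested.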

How the data were processed

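The authors deposited 1 table of FPKM values with 1 column per library. The library kit was stranded and took mRNA, as the labels' protocols say. FastQC, cutadapt, Trimmomatic, HISAT and hg38 are named, without versions or roles, per the submitters' processing notes. No source used here names the program behind the FPKM values, an annotation, a strand setting or a gene filter. The control columns were matched to samples by number, since their 2 letters are swapped against the description label.

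From these values, log2(FPKM + 1) of the 12143 genes averaging 1 FPKM or more was fitted in limma 3.58.1 (R 4.3.3; a group term, empirical Bayes with variance trend, two-sided). Benjamini-Hochberg adjustment ran over all genes tested, at a threshold of 0.05. The limma fit was tried on simulated data, drawn as independent normal values with its own fitted variances, and the other steps were not. Ratios to HSPA8 were tested with an exact permutation test. Python 3.11.15 with pandas 2.3.3, numpy 2.4.6 and matplotlib 3.10.9 did the rest. Coordinates are from GENCODE release 29 (GRCh38).

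Genes named outside the 9 are up to 3 called genes with the largest differences in each of 9 pathway lists, HSPA5, HYOU1, HSF1, HSF2 and the 3 nearest patterns of 4 members. Some further genes of these lists, among them BAG3, STIP1, STUB1, HSPA6, HSPA1L, HSPA12A, HSPA12B, DNAJB1, DNAJC2, DNAJC5, DNAJC7, PAM16, GRPEL2, DNAJC15, HSP90AA1, CHORDC1 and SERPINH1, fall outside this rule and were named after their values were seen, as were the markers given singly. The members and lists were chosen with earlier results of these data known. Protein sequences were not used here. Alternatives tried were another pseudocount, other filters, 2 other scalings, no variance trend, the replicate number as a block and leaving out each library.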

Additional observations from a re-analysis of the deposited data

How the results depend on the processing

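Under the alternatives run, 2 of the 9 genes rose in every case, and 6 fell in every case except with a filter of 5 FPKM, which removes HSPA1A and HSPA1B and leaves 4 that fell. The call of each of these 8 genes held under every alternative that tested it, and HSPA1B came nearest to the threshold (adjusted p up to 0.0432). HSPA14, not called under any alternative, turned from a log2 difference of 0.08 to -0.00297 with quantile normalization. HSPA8 ran from -1.46 with median-ratio scaling to -1.21 with quantile normalization. Without any 1 library, the log2 difference of HSPA9 ran from 0.67 to 0.82 and that of HSPH1 from -0.53 to -0.43.

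Same-numbered libraries did not deviate together (r of deviations from the group means 0.0373, -0.00575 and -0.0146), and not every library correlated best with its own number. With the replicate block, 3392 genes rose and 2384 fell, against 3713 and 2598 without it, and still 6 of the 9 genes fell and 2 rose. Among the other named genes, BAG1, GLRX5 and HSF4 were not called with the block (adjusted p = 0.0505, 0.0883 and 0.0870), and HSF1 was (0.0382). The unknown number of reads limits what can be said of the genes with low values, HSPA1A, HSPA1B and HSPA4L.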

Other observations

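HSPA8 was one of 45 tested genes with a heat shock element of 3 units in a promoter window. Of these 45 genes, 14 fell and 11 rose with Agrimol B (31.1% and 24.4%), with a median log2 difference of -0.04. Among the 9645 tested genes with a window, 21.2% fell and 30.7% rose, with a median of 0.07. This set was chosen after the values of HSPA8 were seen, and the difference in shares was not tested. Of 16 heat shock factor targets with a window, 6 held such an element. HSP90AA1, HSP90AB1, HSPD1 and DNAJA1 among them fell, and CHORDC1 and SERPINH1 were not called. Those that fell, and HSPA8 itself, are already counted in the 14, so naming them adds nothing to that share. HSP90AA1, CHORDC1 and SERPINH1 were named after their values were seen. SERPINH1 stood at 49.3 FPKM in control library 3 against 30.1 and 30.2 FPKM in the others, and at 24.1, 44.0 and 46.3 FPKM with Agrimol B, so that neither group held together.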
